A study of Mus musculus with 10 samples.

Results

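The dorsal root ganglion (DRG) holds the cell bodies of the sensory neurons that serve the limb, each wrapped by satellite glial cells, together with the Schwann cells that ensheathe their axons and a connective capsule with vessels and resident immune cells. The baseline transcriptome of this tissue was described from the 4 sham libraries, all 4 that carry the left DRG sham title, out of 10 libraries in the series. These are 2 female sham and 2 male sham libraries, and the other 6, from axotomized mice, were used only to estimate the spread in the comparison of the sexes. All mice were C57BL6/J, 6 to 8 weeks old, with no transgene named, and were operated under isoflurane. In sham mice the left sciatic nerve was exposed at mid-thigh but not cut, and ipsilateral L4 and L5 DRG were taken 24 h later. The operated-side ganglion of a sham mouse is therefore not the ganglion of a mouse without surgery. Ganglia of 2 mice were pooled for each library, so n counts pools, and the spread between 2 pools of the same sex may be partly technical.

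Levels are given in TPM, a measure of transcript abundance that is corrected for transcript length and scaled to the same total in every library, summed over all transcripts that share a gene symbol. Wherever 4 values are listed, their order is female sham 1, female sham 2, male sham 1 and male sham 2, and an error is the SD over these 4 libraries. Between 63038772 and 70310909 estimated counts were assigned per library, and 3 counts, the limit that a count of 0 allows, equal 0.0427 to 0.0476 CPM (counts scaled to a common library total) for counting error alone. At least 1 TPM in every library, called detected here, was reached by 15154 of 52999 symbols (28.6%) and by 13355 of 21647 protein-coding symbols (61.7%), whose median was 20.5 TPM. Across genes, log2(TPM + 1) of any 2 libraries correlated at Pearson r of 0.994 to 0.997, a value that describes agreement of the profiles and is not a test. The pair of libraries of each sex was nevertheless not 1 library deposited again, since their counts differed beyond sampling noise (chi-square divided by its degrees of freedom, 13.8 for the females and 6.79 for the males).

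Sensory neurons detect temperature, stretch, acid and chemical stimuli through TRP, Piezo, ASIC and P2X channels, and turn them into action potentials through voltage-gated sodium channels, of which Nav1.7 (Scn9a), Nav1.8 (Scn10a) and Nav1.9 (Scn11a) are the classic nociceptor channels. Peptidergic nociceptors release CGRP and substance P, non-peptidergic nociceptors carry Mas-related receptors, P2X3 and the GDNF receptor Ret, and large myelinated afferents are rich in heavy neurofilament (Nefh). The markers given for the ganglion were present in every library. Scn9a stood at 97.7, 102, 114 and 101 TPM, Nefh at 800, 990, 995 and 1094 TPM, and Calca, the CGRP gene, at 2761, 2796, 2766 and 2907 TPM. All 10 general sensory neuron markers were detected, from Isl1 at 76.6 ± 1.39 TPM to Uchl1 at 3053 ± 143 TPM.

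The sequence most worth showing is that of CGRP itself, because 2 genes encode it and Calca led every neuropeptide. Calca (chr7:114631478-114636357, minus strand) and Calcb (chr7:114718643-114723365, plus strand) lie on the same chromosome of GRCm38, the build of the reference transcripts used for sequence. The 111 bases that encode the 37 residues of mature CGRP lie within exon 4 of 5 in Calca-201 (chr7:114632470-114632580, minus strand) and in Calcb-201 (chr7:114721994-114722104, plus strand). They are printed 5′ to 3′, with the bases that differ in capitals:
Calca-201: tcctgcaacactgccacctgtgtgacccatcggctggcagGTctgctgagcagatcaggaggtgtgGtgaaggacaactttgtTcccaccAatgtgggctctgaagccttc
Calcb-201: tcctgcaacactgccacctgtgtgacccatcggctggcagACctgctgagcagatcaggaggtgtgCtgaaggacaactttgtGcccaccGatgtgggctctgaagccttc
These runs share 106 of 111 bases (95.5%), which leaves 5 differences.

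Calca can also be spliced to the calcitonin exon, the form used by thyroid C cells, and the deposited transcript values separate both forms. Calca-201 and Calca-202 share exon 3 and part at exon 4, shown here with the shared end of exon 3 in lower case and the start of each exon 4 in capitals:
Calca-201, CGRP: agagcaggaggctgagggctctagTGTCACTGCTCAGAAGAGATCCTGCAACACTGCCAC
Calca-202, calcitonin: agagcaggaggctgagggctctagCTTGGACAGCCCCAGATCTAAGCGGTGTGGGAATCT
In GRCm38 the CGRP junction spans chr7:114632564-114634491 and the calcitonin junction chr7:114633750-114634491, both on the minus strand. The 3 transcripts with the CGRP exon summed to 2745, 2782, 2749 and 2893 TPM, which is 99.4% ± 0.0556 of Calca. The 2 transcripts with the calcitonin exon summed to 7.00, 5.25, 6.31 and 4.85 TPM, or 0.209% ± 0.0392, and the 2 remaining short transcripts held 0.342% ± 0.0316. In sham DRG the Calca level was thus a CGRP level in every library.

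The most abundant nuclear protein-coding mRNAs came from neuronal cytoskeleton and housekeeping genes, glia and myelin. Tuba1a, an α-tubulin of neurons, ranked first at 4423 ± 143 TPM. Apoe, the lipid carrier made by satellite glia and macrophages, followed at 3750 ± 311 TPM by the sum, but its coding transcripts held 1366 ± 101 TPM, less than the 2072 TPM of Pmp22, the last of the 20 highest. Sncg, γ-synuclein, stood at 3518 ± 84.8 TPM. The 20 highest also held the neuronal genes Uchl1, Calca, Nefl and Tubb3, the myelin gene Pmp22, the red cell gene Hbb-bs, and the widely expressed Ppia, Fth1, Tmsb4x, Hspa8, Gapdh, Aldoa, Actg1, Tuba1b, Ubb and Calm2. In all, 67 nuclear protein-coding genes had a mean of 1000 TPM or more, 1638 had 100 TPM or more, and 9269 had 10 TPM or more. Among lncRNAs the highest were Bc1, Meg3, Rian, Norad and Gas5, the last at 354 ± 30.3 TPM and Norad at 543 ± 37.5 TPM. The first place of Bc1 in TPM rested on a mean of 1274 estimated counts, against 81348 for Norad.

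Mitochondrially encoded genes took 15.6% ± 0.58 of TPM but 3.11% of estimated counts, and mt-Atp8, a very short gene, reached 61621 ± 2984 TPM. The division of reads between mt-Co3, of this class, and Gm28437, a pseudogene on chromosome 1 counted outside it, changed from library to library. Unprocessed pseudogenes, Gm28437 among them, took 1.65% ± 0.297 of TPM, so the 15.6% share depends in part on such divisions. Mt-Co3 stood at 4103, 5188, 9534 and 6982 TPM, whereas Gm28437 stood at 11112, 9023, 4107 and 6917 TPM, so that the library with the highest value for the gene had the lowest for the copy. The CV was 36.8% for mt-Co3 and 38.4% for Gm28437 but 4.84% for their sum of 14242 ± 690 TPM. The reference transcripts were aligned to see how far these features can be told apart, and all 783 aligned bases were the same. The opening 60 bases, shared by mt-Co3 (chrM:8607-8666, plus strand) and Gm28437 (chr1:24613912-24613971, minus strand) in GRCm38, show that no read inside the copy can be placed by its letters:
mt-Co3 and Gm28437: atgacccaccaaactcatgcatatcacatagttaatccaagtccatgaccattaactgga
Mt-Co2 and Gm28661 were likewise the same over 681 aligned bases, with a CV of 8.87% and 16.2% and a CV of 2.65% for their sum. Mt-Nd3 and Gm28438 differed at 1 of 345 bases. The levels of these 6 features are therefore uncertain by themselves, and the sums are the usable values.

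**Figure D1:**
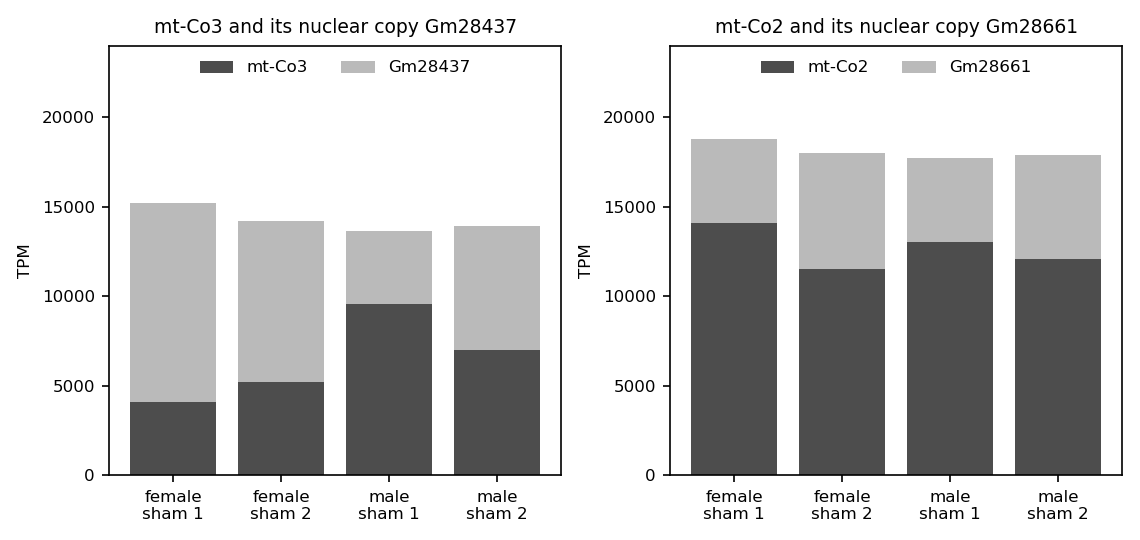
Stacked bars give the TPM of mt-Co3 with Gm28437 (left) and of mt-Co2 with Gm28661 (right) in each sham library, with the axis from 0. The dark and light shares change between libraries, most for mt-Co3 (4103 to 9534 TPM), whereas the bar heights stay near 14242 TPM and 18091 TPM.

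A symbol's summed TPM also counts transcripts annotated as retained intron, processed transcript or nonsense-mediated decay, and for some of the genes named here these hold most of the level. Of 466 detected list symbols, 38 (8.15%) had a sum over 1.5 times that of their protein-coding transcripts, against 14% of all detected protein-coding symbols. Ighm, detected but without a transcript annotated as protein-coding, is not counted in the 38. Among symbols with such transcripts, the largest gaps were at Kcna6, with 6.37% of 63.6 TPM in coding transcripts, and Gfra4, with 8.55% of 23.3 TPM. Apoe held 36.4% in coding transcripts, and Pou4f1, the sensory neuron homeobox gene, held 34.6%, which gave 68.4 ± 3.27 TPM. For genes below with a coding share under 66%, the coding value is printed beside the sum.

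**Figure D2:**
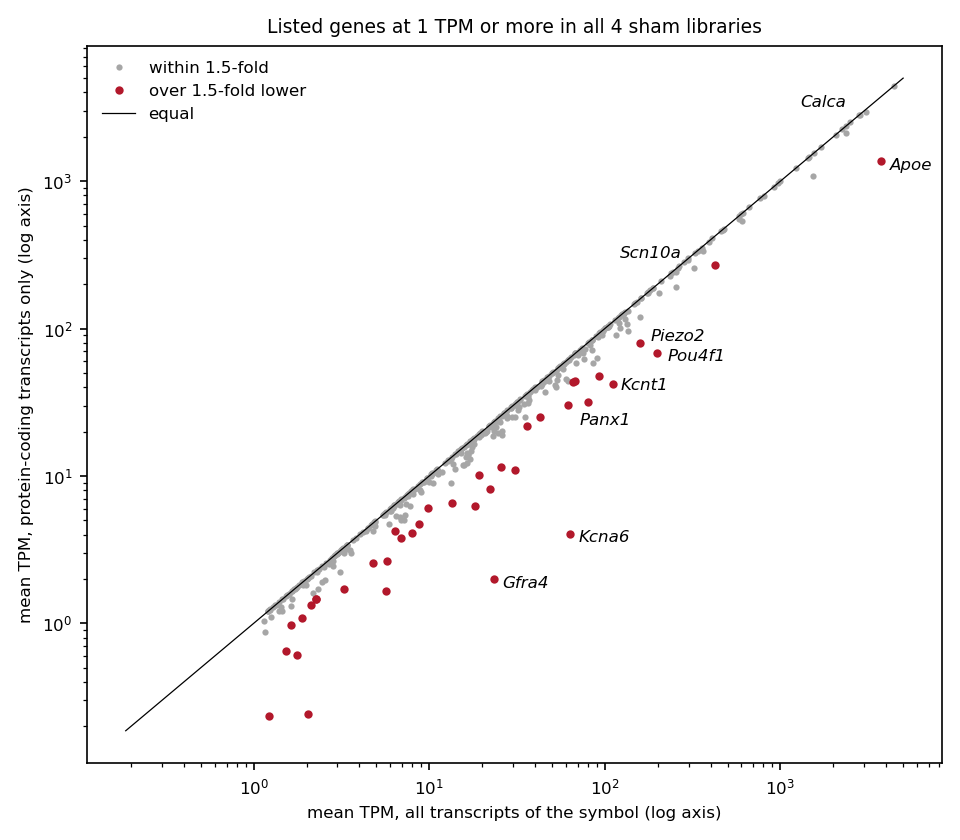
Each point is a listed gene with at least 1 TPM in all 4 sham libraries, plotted by its mean TPM over all transcripts (x) and over protein-coding transcripts (y), both on log axes. The 38 red points, among them Kcna6, Gfra4, Apoe, Pou4f1, Piezo2, Kcnt1 and Panx1, lie more than 1.5-fold below the line of equality, and Ighm, which has no transcript of that class, is not drawn.

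Nav1.8 was the most abundant sodium channel of sham DRG. Scn10a stood at 320, 318, 346 and 312 TPM, 37.3% ± 0.412 of the α subunit total, and lay above every other α subunit in all 4 libraries. It was followed by Scn7a, the sodium-sensing Nax channel of glia and some neurons, at 177, 173, 177 and 166 TPM. Nav1.9 (Scn11a) stood at 165, 158, 168 and 155 TPM. Scn7a exceeded Scn11a in each library but by a mean ratio of 1.07, and their ranges overlapped, whereas Scn11a exceeded Scn9a with no overlap. Next came Scn8a (Nav1.6, the nodal channel of myelinated axons) at 45.9 ± 4.77 TPM and Scn1a (Nav1.1) at 43.7 ± 3.45 TPM, whose order changed between libraries. Scn2a (8.02 ± 0.665 TPM, 4.13 ± 0.281 in coding transcripts), Scn3a and Scn4a were low but detected. In Scn10a a short processed transcript, Scn10a-203, held 65.7 ± 6.87 TPM of the sum. Of the β subunits, which set gating and surface level, Scn4b stood at 189 ± 20.3, Scn3b at 44.5 ± 1.3 and Scn2b at 22.0 ± 1.18 TPM, with no overlap between them.

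N-type and P/Q-type calcium channels, which drive transmitter release at the central terminals, led the pore subunits. Cacna1b (Cav2.2) stood at 55.9, 57.3, 58.8 and 62.1 TPM and Cacna1a (Cav2.1) at 44.6, 44.4, 43.7 and 49.6 TPM, with no overlap. The L-type Cacna1c, at 18.0 ± 1.45 TPM, and the T-type Cacna1h, at 16.3 ± 1.49 TPM, overlapped. Detection was reached by 7 of 10 pore genes, and Cacna1g, Cacna1s and Cacna1f fell below it. Accessory subunits were more abundant than pores, with Cacnb3 at 204 ± 8.72 TPM and Cacna2d1, the gabapentin target, at 120 ± 3.91 TPM. Cacnb4 followed at 92.4 ± 5.55 TPM, of which 47.8 ± 1.66 TPM came from coding transcripts, and Cacna2d3 at 42.5 ± 3.17 TPM, of which 25.2 ± 1.69 TPM was coding.

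Potassium channels were the largest channel group by number of genes, with 32 of 40 voltage-gated pore genes detected and no gene dominant. Kcna1 (Kv1.1), which limits firing at juxtaparanodes and in the soma, led at 116, 128, 138 and 130 TPM, or 12.4% ± 0.314 of the list. It was followed by its partner Kcna2 at 98.2 ± 6.02 TPM and the A-type Kcnd1 at 90.9 ± 4.69 TPM. Kcna6 was among the 5 highest by the sum, at 63.6 ± 4.50 TPM, but its coding transcripts held 4.05 ± 4.40 TPM, so its place rests on transcripts not annotated as coding. Female sham 1, which was lowest for 39.0% of all detected nuclear protein-coding genes, was the lowest library for 24 of the 32 detected Kv genes. The subunit Kcnab2 exceeded every pore gene at 603 ± 48.8 TPM, and the Kv4 partners Kcnip3 (189 ± 8.26 TPM) and Dpp6 (176 ± 7.10 TPM) followed.

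Of the 14 K2P leak channel genes 10 were detected, and Kcnk1 (TWIK-1) stood at 66.9, 69.5, 67.2 and 68.2 TPM and made 50.5% ± 1.13 of the group. The mechanosensitive Kcnk4 (TRAAK) came next at 17.1 ± 1.0 TPM. Kcnj10 (Kir4.1), the satellite glial channel that buffers potassium, led the inward rectifiers at 27.1, 31.6, 32.8 and 32.4 TPM, ahead of Kcnj12 at 23.6 ± 1.45 TPM. Kcnt1, the sodium-activated Slack channel, led its group at 111 ± 6.92 TPM, with 42.1 ± 2.30 TPM in coding transcripts, still above the 34.2 TPM of Kcnmb4 by that measure. Of the pacemaker channels, Hcn2 led at 61.4 ± 7.90 TPM, and Hcn3 (15.6 ± 0.539 TPM) and Hcn4 (6.32 ± 0.599 TPM) were lower, with no overlap between them.

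**Figure D3:**
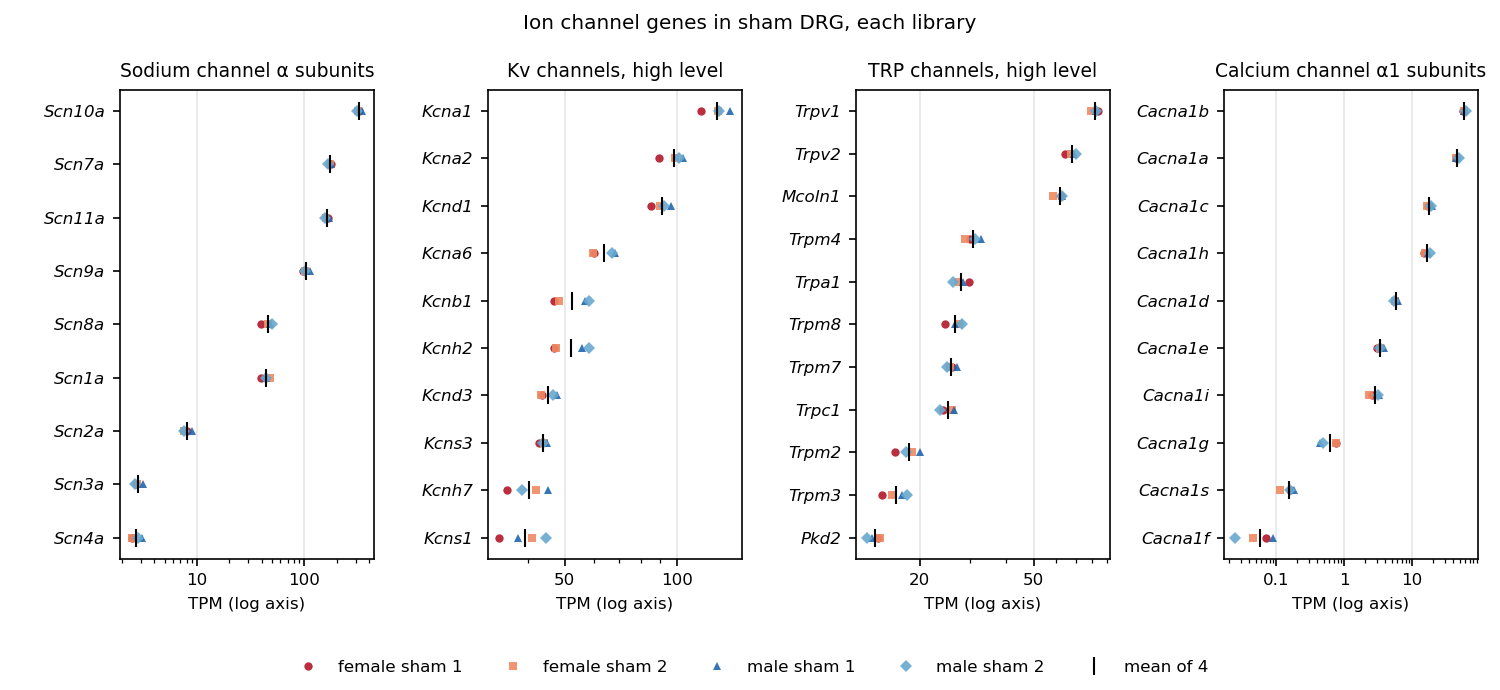
Points give TPM on a log axis for each of the 4 sham libraries (shape and colour) and black ticks give the mean, for sodium channel α subunits, Kv channels of high level, TRP channels of high level and calcium channel α1 subunits. Scn10a stands apart from Scn7a and Scn11a, which overlap, while the Kv genes form a gradual series in which female sham 1 is often the lowest point.

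The heat and capsaicin channel Trpv1 was the highest of 28 TRP genes, at 83.8, 79.3, 82.4 and 82.1 TPM. Trpv2 followed at 67.8 ± 2.53 TPM (44.1 ± 0.856 coding), then the lysosomal channel Mcoln1 at 61.5 ± 2.11 TPM. The irritant channel Trpa1 stood at 27.8 ± 1.53 TPM and the cold channel Trpm8 at 26.6 ± 1.52 TPM, and their order changed between libraries. Trpm4 had a similar sum, 30.6 ± 1.63 TPM, but 11 ± 0.588 TPM in coding transcripts. Detection was reached by 16 of 28 TRP genes, and Trpv6 was listed at 0 in all 4 libraries.

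The touch and proprioception channel Piezo2 stood at 148, 154, 164 and 166 TPM, the highest value among mechanosensitive and acid-sensing channels. Its coding transcripts held 79.5 ± 7.16 TPM, with 67.7 ± 2.63 TPM in a transcript annotated for nonsense-mediated decay, and by coding transcripts Tmem63b (sum 130 ± 8.75 TPM) came first. The acid sensors were ordered Asic3 (116 ± 10.3 TPM), Asic1 (66.1 ± 6.59 TPM, 43.3 ± 4.76 coding) and Asic2 (46.9 ± 2.01 TPM). Piezo1, known from endothelium and red cells, reached 2.13 TPM, of which 1.32 ± 0.301 TPM was coding. Among chloride channels and transporters Ano3 led at 89.5 ± 6.32 TPM, and Slc12a2 (NKCC1), the importer that keeps DRG neurons rich in chloride, stood at 66.6 ± 1.89 TPM.

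P2X3 dominated its family and had the lowest CV (0.661%) of the detected P2X, ionotropic glutamate, GABA, serotonin and nicotinic receptor genes. P2rx3, the ATP receptor of non-peptidergic nociceptors, stood at 236, 233, 237 and 236 TPM and made 73.9% ± 0.48 of P2X TPM. The glial and immune P2rx4 came next at 35.1 ± 1.62 TPM, and P2rx2, the usual partner of P2X3, reached 2.73 ± 0.201 TPM.

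Among glutamate and GABA receptors the leading gene held a smaller share than P2rx3 did. Grik1 (GluK1), a kainate receptor of C fibers, led at 137, 127, 141 and 131 TPM, 37.6% ± 1.79 of ionotropic glutamate receptors. Grin1 stood at 57.5 ± 5.61 TPM and Gria4 at 50.6 ± 3.38 TPM, with overlapping ranges. Of the NMDA partners of Grin1, Grin3a was the highest at 8.26, 8.91, 10.1 and 8.60 TPM, Grin2d reached 1.40 TPM, and Grin2a and Grin2b averaged 0.0530 and 0.0142 TPM. Of 8 metabotropic genes 3 were detected, with Grm7 at 39.9 ± 2.66 TPM making 69.0% ± 2.10 of the list. Gabbr1 led the GABA receptors at 238, 257, 263 and 262 TPM (48.2% ± 0.858 of the list), well above its obligate partner Gabbr2 at 57.5 ± 4.58 TPM. Of the GABA-A subunits, Gabra2 had 25.6 TPM in sum and 11.5 ± 0.357 in its coding transcript. Htr3a, the serotonin-gated channel, stood at 126 ± 8.31 TPM, above Htr1d (27.5 ± 2.16), a triptan target, and the α7 nicotinic gene Chrna7 at 47.9 ± 3.90 TPM, above Chrnb2 (29.2 ± 2.06) and Chrna6 (27.3 ± 3.55 TPM).

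The μ opioid receptor was modest in level and shared first place. Oprm1 stood at 13.4, 16.3, 20.1 and 17.1 TPM and the nociceptin receptor Oprl1 at 13.5, 18.9, 16.6 and 17.3 TPM, and Oprm1 was above Oprl1 in 1 of 4 libraries. The δ receptor Oprd1 followed at 7.53 ± 0.90 TPM and the κ receptor Oprk1 at 1.39 ± 0.155 TPM, each apart from its neighbour.

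Mas-related receptors mark classes of itch and pain neurons. Mrgprd, of β-alanine responsive nociceptors, stood at 99.2, 93.5, 110 and 98.6 TPM, 44.3% ± 0.607 of the family, with Mrgprx1 next at 32.8 ± 1.63 TPM. Mrgpra2b (19.7 ± 1.90 TPM), Mrgpra3 (17.9 ± 1.43), the chloroquine receptor, and Mrgprb4 (17.1 ± 1.55 TPM) formed an overlapping run. Mrgpra2b and Mrgpra2a (4.85 ± 0.519 TPM) share 98.9% of 1234 aligned bases, so the division between them is uncertain and their sum of 24.5 ± 2.37 TPM is safer. Detection was reached by 9 of 21 members, and Mrgprb3 and Mrgprg were listed at 0.

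In summed TPM the neurotrophin receptors (611 ± 43.4) and the GDNF family receptors (530 ± 24.9) were much higher than the ligands of both families (31.5 ± 4.68). Ngfr (p75) stood at 271, 298, 314 and 314 TPM and led the neurotrophin receptors in every library. Ntrk2 (TrkB) at 59.9 ± 6.55 TPM and Ntrk3 (TrkC), of proprioceptors, at 48.2 ± 6.42 TPM overlapped. The GDNF receptor Ret stood at 253, 257, 280 and 273 TPM, and its co-receptors fell in the order Gfra1 (107 ± 1.78 TPM), Gfra2 (84.1 ± 6.61) and Gfra3 (49.8 ± 4.62 TPM), all apart. Gfra4 had 23.3 ± 1.71 TPM in sum but 1.99 ± 0.202 TPM in coding transcripts. Among the ligands Bdnf, which nociceptors make, stood at 31.9, 27.9, 23.1 and 23.2 TPM, and Ntf3 and Nrtn at 1.52 and 1.33 TPM. Gdnf averaged 0.0857 TPM.

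CGRP peptide mRNA exceeded every other neuropeptide. Calca made 67.4% ± 0.915 of the TPM of 36 neuropeptide genes and ranked 8 among nuclear protein-coding genes. Tac1, the substance P precursor, stood at 486, 441, 475 and 471 TPM. Nmb (neuromedin B) stood at 361, 338, 369 and 358 TPM, Calcb (β-CGRP) at 213, 200, 221 and 206 TPM and Adcyap1 (PACAP) at 175, 172, 143 and 146 TPM, and each was apart from its neighbours in the order. Calcb thus lay below Calca in every library, although their mature coding runs, printed above, differ at 5 bases. Below these came Gal (galanin) at 55.8 ± 11.4, the itch peptide Nppb at 29.1 ± 5.47, Nts at 19.5 ± 2.49, Cartpt at 17.4 ± 0.767, Penk at 14.2 ± 2.90 and Sst at 10.4 ± 2.30 TPM. Detection was reached by 15 of 36 genes. Vip and Tac2 averaged 0.0818 and 0.108 TPM, and Nppa and Iapp were listed at 0.

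The 36 peptide receptor genes summed to 277 ± 3.38 TPM and the 36 neuropeptide genes to 4166 ± 69 TPM, and the genes of peptide storage and processing were abundant. Calcrl, the receptor core, reached 7.30 ± 0.54 TPM and Ramp2 29.6 ± 2.23 TPM, while Npr2, the C-type natriuretic peptide receptor of sensory axons, led 36 peptide receptor genes at 85.3 ± 2.32 TPM. Tacr1, the substance P receptor, averaged 0.153 TPM, and Calcr, the calcitonin receptor, was listed at 0. Cpe (carboxypeptidase E, 611 ± 14.9 TPM), Scg3 (580 ± 10.6) and Scg2 (283 ± 8.48 TPM) led the granin and prohormone group, of which all 11 were detected. Pam, which amidates CGRP and substance P, stood at 122 ± 1.53 TPM.

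**Figure D4:**
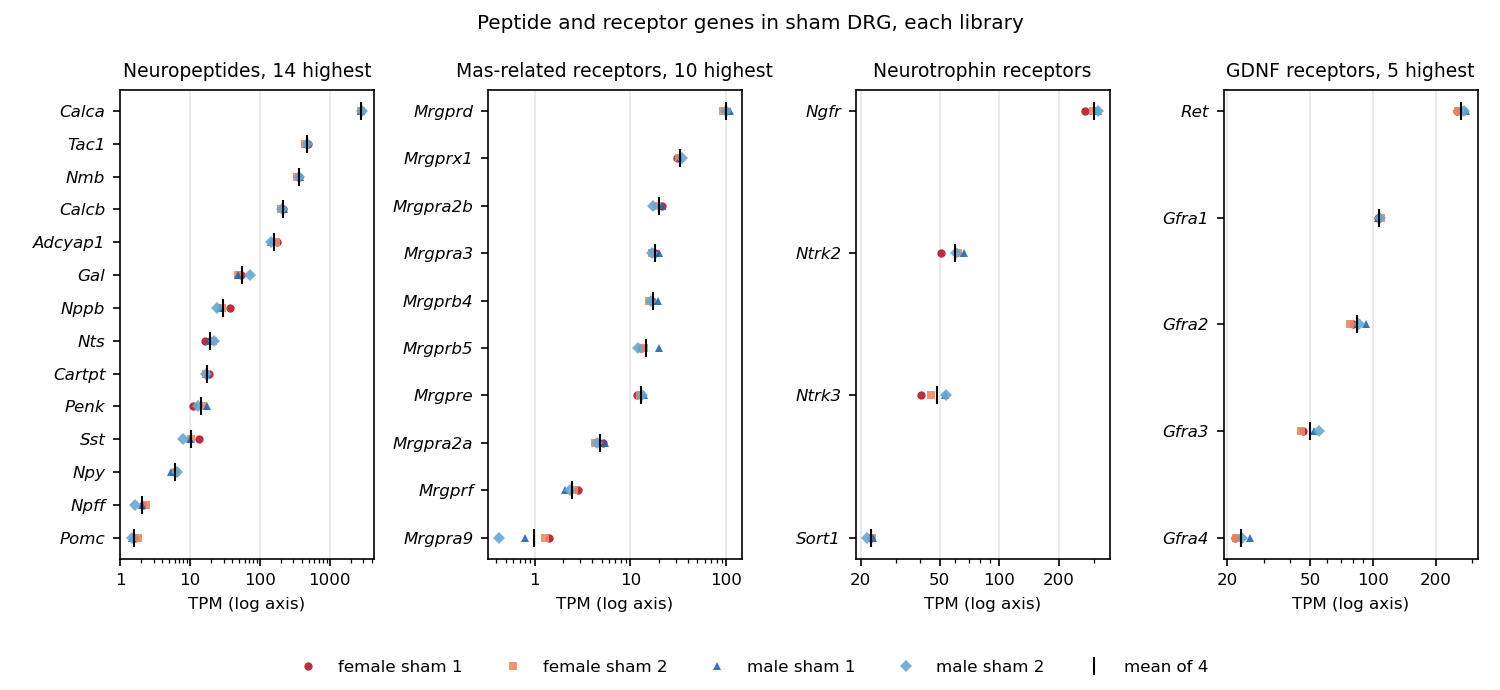
Points give TPM on a log axis in each sham library and black ticks the mean, for the 14 highest neuropeptides, the 10 highest Mas-related receptors, neurotrophin receptors and the 5 highest GDNF family receptor genes. Calca lies 6.01-fold above Tac1 on average, and Mrgprd and Ret each stand clear of the next member of their group.

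Of genes that injury is known to induce in sensory neurons, Atf3, Gal, Sprr1a, Sox11 and Npy were not silent in sham DRG. These were picked after their values were seen and do not stand for such genes in general. The neuropeptide gene Vip, given above, was not detected. Atf3, an early injury transcription factor, stood at 80.2, 116, 71.4 and 79.5 TPM, Gal at 53.0, 48.7, 48.8 and 72.6 TPM, and Sprr1a at 11.2, 16.5, 14.2 and 19.1 TPM. Sox11 and Npy stood at 9.51 ± 1.57 and 6.02 ± 0.563 TPM. The highest Atf3 value was in female sham 2 and the highest Gal and Sprr1a values in male sham 2, so no library was highest for all of them. Naive ganglia are not among the samples, and whether the exposure of the nerve took part in these levels was not tested.

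The neuronal scaffold was dominated by neurofilaments and tubulins. Nefl stood at 2240, 2492, 2521 and 2746 TPM, Nefm at 1562 ± 183, peripherin (Prph), of small neurons, at 1458 ± 61.8 and Ina at 23.3 ± 1.67 TPM. The neuronal Tubb3 stood at 2366 ± 181 TPM, overlapping Tuba1b at 2350 ± 72.2 TPM. Male sham 2 had the highest value for 5 of 5 neuronal intermediate filaments and 11 of 12 detected tubulins, against 26.5% of all detected nuclear protein-coding genes, and female sham 1 the lowest for 4 and 9, against 39.0%. Of the transcription factors that specify sensory neurons all 15 were detected, with Prdm12 at 120 ± 8.55, Klf7 at 114 ± 6.36, Isl1 at 76.6 ± 1.39 and Runx1 at 36.2 ± 2.44 TPM. Slc17a6 (VGLUT2, 136 ± 3.76 TPM) and Slc17a7 (VGLUT1, 119 ± 15.2 TPM), which load vesicles with glutamate, overlapped, and Slc17a8 (VGLUT3), of C low-threshold mechanoreceptors, was at 6.43 ± 0.814 TPM.

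The marker lists of neuron classes gave summed levels of very different size, which follow the abundance of each marker and not cell number. In whole ganglia fewer cells of a type and less RNA per cell cannot be told apart. The peptidergic list summed to 3698 ± 69.4 TPM (Calca 75.9% of it), the large myelinated list to 1686 ± 146, the non-peptidergic list to 607 ± 23.2, the pruriceptor list to 145 ± 13.2, the C low-threshold mechanoreceptor list to 125 ± 8.02 and the cold list to 31.0 ± 1.18 TPM. All members of these lists were detected. Il31ra, the itch cytokine receptor, led pruriceptors at 32.2 ± 3.55 TPM in sum, but by coding transcripts Nppb (29.1 TPM) lay above it (27.9 ± 2.81 TPM). Tyrosine hydroxylase (Th) led the C low-threshold list at 68.1 ± 6.32 TPM, and Pvalb, of proprioceptors, stood at 148 ± 16.3 TPM.

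Satellite glia and Schwann cells contributed abundant mRNA. Fabp7, a fatty acid binding protein of satellite glia, stood at 849, 817, 789 and 596 TPM, and its ranges overlapped those of the sterol enzyme Hmgcs1 (600 ± 20.5 TPM). Glul, glutamine synthetase, stood at 298 ± 22.9 TPM, and the gap junction gene Gja1 at 18.8 ± 1.64 TPM. Among the genes of peripheral myelin, Pmp22 stood at 2701, 1978, 1897 and 1736 TPM and Mbp at 1683, 1100, 1111 and 1012 TPM. Female sham 1 was therefore well above the other libraries for both, and it was highest for 12 of 12 peripheral myelin genes, against 23.8% of all detected nuclear protein-coding genes. Male sham 2 was lowest for 11 of the 12, against 25.4%. The summed myelin level was 9050 TPM in female sham 1 and 5938 to 6690 TPM in the rest. In the same library 9 of 10 sensory neuron markers and 9 of 9 endothelial markers were at their lowest, against the 39.0% given above for all 13342 detected nuclear protein-coding genes. The part of these marker shifts in the other levels of that library was not tested.

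**Figure D5:**
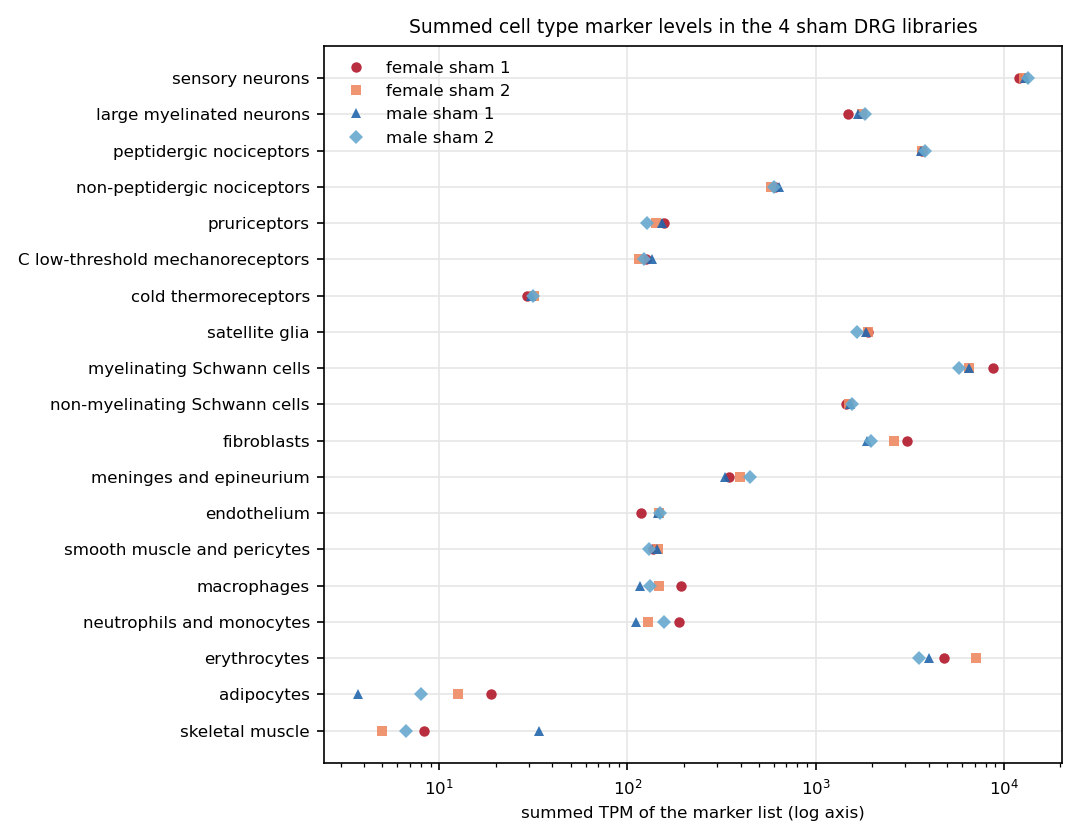
Each point is the summed TPM of a cell type marker list in 1 sham library, on a log axis. Female sham 1 stands apart to the right for myelinating Schwann cells (8819 TPM) and to the left for endothelium (118 TPM), while female sham 2 is highest for erythrocytes (7151 TPM) and male sham 1 for skeletal muscle (34.0 TPM).

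Connective tissue was represented mostly by secreted carriers and small proteoglycans rather than by fibrillar collagen. Apod stood at 2051, 1687, 1159 and 1263 TPM, 64.3% ± 2.17 of the fibroblast list, and decorin (Dcn) at 585, 535, 400 and 386 TPM, 65.6% ± 1.18 of the small leucine-rich proteoglycans. Osteoglycin (Ogn) stood at 228, 166, 134 and 115 TPM. Each of these genes was highest in female sham 1, and both female values lay above both male values. Of 44 collagen genes 31 were detected, and none exceeded Col1a2 at 69.9 ± 4.77 TPM. Col28a1 (44.6 ± 3.15 TPM), a collagen of peripheral glia, and Col5a3 (43.6 ± 0.805 TPM) came next, ahead of Col3a1 (36.1 ± 6.75) and the basement membrane chain Col4a1 (31.7 ± 2.56 TPM). The laminin chains were led by Lamb1 at 37.1 ± 2.67 and Lamb2 at 26 ± 2.16 TPM. Among connexin and pannexin genes Panx1 led by the sum at 80.1 ± 2.95 TPM but held 31.9 ± 2.55 TPM in coding transcripts, below Panx2 at 38.3 ± 4.01 TPM. Gjb1, the connexin of myelinating Schwann cells, stood at 14.3, 10.9, 10.7 and 8.17 TPM, with the same highest and lowest library as the myelin genes.

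Immune, vascular and red cell genes were present at lower or more variable levels. The macrophage list summed to 147 ± 32.6 TPM with all 12 members detected, led by Lyz2 at 54.3 ± 13.8 TPM. Female sham 1 was highest for 11 of the 12, against 23.8% of all detected nuclear protein-coding genes. Male sham 1 was lowest for 8 and male sham 2 for 4, against 18.5% and 25.4%. By library the list summed to 192, 148, 116 and 132 TPM, so both female sums lay above both male sums. S100a9 and S100a8, of neutrophils, stood at 67.9 ± 14.9 and 61.7 ± 14.6 TPM. No T or NK cell marker was detected, and their 8 genes summed to 3.08 ± 0.974 TPM. The hemoglobin gene Hbb-bs ranged from 1594 TPM in male sham 2 to 3364 TPM in female sham 2, and Hba-a1 and Hba-a2, which differ at 1 of 538 aligned bases, are better read as their sum of 2285 ± 708 TPM. The skeletal muscle list, of which only Mylpf was detected in every library, summed to 34.0 TPM in male sham 1 and 4.98 to 8.32 TPM elsewhere. The adipocyte list summed to 18.9 TPM in female sham 1 and 3.70 to 12.6 TPM elsewhere, with 1 of 6 members detected. Of 8 markers of brain and spinal cord cells 3 were detected, namely Slc17a7, which sensory neurons also express, Aqp4 at 5.6 ± 0.686 TPM and Mobp at 1.23 TPM (0.233 TPM coding), while Mog, of oligodendrocytes, was at 0.113 ± 0.0207 TPM and Neurod6 at 0.00791 TPM. Of 6 keratinocyte markers the detected ones were Sprr1a, which injured neurons also express, and Krt10 at 5.41 ± 0.74 TPM, and Krt5 was listed at 0.

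Most genes varied little between the libraries. The median CV over the 4 libraries was 5.79% for detected protein-coding genes and 8.67% for the detected list symbols. Among the 9269 nuclear protein-coding genes with a mean of at least 10 TPM the least variable were Sumf1 (27.3 to 27.4 TPM), Snx32, Cat, Rab7 (299 to 302 TPM) and Ccnt1. The most variable of these were the Y-linked Eif2s3y and Ddx3y, then Gm11032, Gbp2 and Rps27. Gm11032 held a mean of 3.25 estimated counts per library, so its spread cannot be told from counting error. Gbp2, an interferon-induced GTPase, stood at 26.4 TPM in female sham 1 and 5.94 to 7.99 TPM in the others. Rps27 stood at 772, 582, 244 and 168 TPM. Its female values thus lay above its male values, but it was not among the genes called by the edgeR test below.

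Whether the sexes differ at baseline was tested over 20797 genes by the edgeR quasi-likelihood test, with Benjamini-Hochberg adjusted p values (padj) under 0.1 as the threshold. In this test 9 genes (0.0433%) differed, with 6 (0.0289%) at a higher level in male and 3 (0.0144%) in female ganglia. The male-high genes were the Y-linked Ddx3y (0.0339 and 0.165 TPM in females, 35.7 and 33.0 TPM in males), Eif2s3y, Kdm5d, Uty and Uba1y, and the gene model Gm29650. Xist, the RNA that silences an X chromosome, stood at 62.0 and 59.1 TPM in females and 0.0705 and 0.186 TPM in males. Each library therefore matched the sex on its label. Eif2s3x (139 and 147 TPM in females, 88.2 and 87.9 TPM in males, log2FC −0.71 ± 0.0732 SE, padj = 0.00308, edgeR) and Kdm6a (23.2 and 23.8 against 15.8 and 14.6 TPM, log2FC −0.64 ± 0.0832 SE, padj = 0.0215, edgeR) are X-linked genes known to escape silencing. The call of Kdm6a was lost when any of the 4 sham libraries was left out (padj from 0.2 to 0.515), that of Uba1y without either female library or without male sham 2, and that of Eif2s3x without either male library (padj = 0.102 and 0.101).

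None of the 607 channel, receptor, peptide, glial and connective tissue symbols that could be tested differed between the sexes (edgeR, 0 of 607, against 0.0433% of all genes). At an unadjusted p under 0.05 there were 32 (5.27%), against 3.23% of all genes tested, and DESeq2 called 1, Fabp4. The lowest padj of the list was 0.981, at Fabp4, an adipocyte and endothelial lipid carrier (9.97 and 6.44 TPM in females, 2.37 and 4.05 TPM in males). Apod, with a male minus female log2FC of −0.64 ± 0.31 SE, Dcn, with −0.52 ± 0.287 SE, Ogn, with −0.67 ± 0.287 SE, and Bdnf, with −0.38 ± 0.115 SE, did not pass (padj = 1 for each, edgeR). When the 4 sham libraries were fitted alone, 33 genes were called and Dcn and Igfbp6 were among them. For the neuronal markers the same difference was 0.02 ± 0.101 for Calca, 0.04 ± 0.149 for Scn10a, 0.10 ± 0.128 for Scn9a and 0.21 ± 0.2 for Nefh (log2FC ± SE). With 2 pools per sex, an exact permutation of the sham libraries cannot give a p below 0.333 for any of these genes, and the missing calls do not show that the sexes are alike.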

How the data were processed

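RNA of L4 and L5 DRG, extracted from the pooled ganglia of 2 mice per library, was sequenced by the authors as poly(A)-selected, stranded, paired-end libraries on a NovaSeq 6000. Per the labels and the study's methods, reads were trimmed with Trimmomatic 0.39 and quantified with Salmon 1.3.0, with sequence and GC bias correction, on Gencode M27 transcripts (GRCm39); MultiQC 1.9 was used for quality control. For strand, the setting of Salmon was not given in the sources used here. Overlapping antisense genes may therefore share reads. The deposited values are TPM and estimated counts per transcript, made by the authors with Salmon, which divides reads between similar transcripts by a model.

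TPM was summed per gene symbol in the 4 sham libraries. Genes were named by rule: the given markers, the 5 highest members of each of 61 gene lists (all members of lists of up to 6) and low members where they describe the low end, the 20 highest genes, the 5 highest lncRNAs, the 5 most and least variable nuclear protein-coding genes (mean of at least 10 TPM), and all genes that differed between the sexes. Grin3a, Grin2d, Piezo1, Runx1, Pam, Atf3, Sox11 and other genes beyond that rule were chosen after their values were seen. Values of some genes that the rule names are not reported here. The lists and members were chosen with earlier results of these data known. Levels and orders carry no test; neighbours were called apart where their ranges did not overlap.

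For the sexes, estimated counts were summed per symbol, rounded, and tested with edgeR 4.0.16 (quasi-likelihood, TMM, length offset, filterByExpr with a count minimum of 10) in R 4.3.3 over all 10 libraries, with the Benjamini-Hochberg adjustment. The test was first tried, without the length offset, on counts simulated with the same spread setting for every gene. That trial differs from these data and does not measure the error of the test here. Alternatives used DESeq2 1.42.0 and limma 3.58.1 on log2(TPM + 1) or log2(TPM + 0.1). Each sham group holds 2 libraries, so the edgeR p-values measure the spread between pools of the same group over all 10 libraries, axotomy included. Depth was 63038772 to 70310909 estimated counts, and floors cover counting error only. Sequences came from Gencode M21 (GRCm38) and were aligned with Biopython 1.88; the transcripts used, 17 in all, had the same length there and in the deposited files.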

Additional observations from a re-analysis of the deposited data

Results flagged for a closer look

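Sums and genes in which the highest or the lowest of the 4 sham libraries lay far from the other 3 (a gap to the nearest library that exceeds the 95% critical value of Dixon's test) are given here; chance gives about 1 such case in 20, and 3 of 76 sums and library measures and 19 of 300 genes (6.33%) met the rule. None of them is explained here.

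Female sham 1 stood apart for the summed endothelial markers (118 TPM, others 146 to 150 TPM), for the myelin gene Mbp (1683 TPM, others 1012 to 1111), Apoe (3287 TPM, others 3870 to 3955), the actin-binding Tmsb4x (3043 TPM, others 2723 to 2731), Gbp2 (26.4 TPM, others 5.94 to 7.99), Panx2 (32.3 TPM, others 39.5 to 40.8) and Dpp6 (166 TPM, others 179 to 180).

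Male sham 1 stood apart for the summed skeletal muscle markers (34.0 TPM, others 4.98 to 8.32 TPM) and for their members Acta1 (7.27 TPM, others 0.671 to 1.59), Tnnt3 (6.43 TPM, others 0.350 to 1.34), Mylpf (5.78 TPM, others 1.39 to 2.14), Tnnc2 (5.00 TPM, others 0.174 to 0.852) and Ckm (4.15 TPM, others 0.342 to 0.561). The nicotinic subunit Chrnb3 was also apart there, at 5.53 TPM against 4.31 to 4.51.

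Male sham 2 stood apart for the summed peptidergic nociceptor markers (3801 TPM, others 3649 to 3671 TPM). It also did so for Cacna1a (49.6 TPM, others 43.7 to 44.6) and Kcnk12 (12.5 TPM, others 10.5 to 10.7). The glial factor Sox10 (48.3 TPM, others 54.0 to 54.3) and the receptor gene Kit (34.7 TPM, others 36.7 to 37) were lower there. So were Lama2 (14.2 TPM, others 17.1 to 17.4) and the B cell gene Cd79a (1.20 TPM, others 2.24 to 2.33). Kit is on the mast cell list. However, 4 of the 5 detected members of that list were lowest in male sham 1, against 18.5% of all detected nuclear protein-coding genes. Female sham 2 stood apart for Ccnt1 alone (13.5 TPM, others 13.4 TPM), one of the least variable genes.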

How the results depend on the processing

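The number of genes that differed between the sexes was 9 with edgeR. It was 27 with DESeq2, 33 with the sham libraries alone, 16 without the filter on low counts, 17 and 14 with limma on log2(TPM + 1) and log2(TPM + 0.1), and 22 with limma and no filter; the 9 genes were shared by the first 3 of these and 7, 7 and 6 of them by the limma fits. Leaving out each library in turn gave 7 to 10. Replicate deviations of the sham libraries correlated at 0.0631 between the sexes. With a single difference per sex, this cannot decide whether the replicate numbers pair the samples. With the replicate block 9 genes were called. No named sex difference was reversed.

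Detected genes numbered 15250 to 15281 when a sham library was left out, and 60 to 61 of 61 lists kept their leading gene. Estimated counts, which favour long transcripts, changed the leading gene in 17 lists and protein-coding transcripts alone in 6. Mitochondrially encoded genes took 17.9% of TPM with protein-coding and mitochondrial transcripts only and 3.11% of counts, ribosomal protein genes 4.20% and 1.12%, and unprocessed pseudogenes 0.368% and lncRNA genes 1.33% of counts. Without a library the ranges were 15.4% to 15.8%, 3.75% to 3.89%, 1.58% to 1.79% and 1.42% to 1.45% for these classes in the same order. Leaving out mitochondrial genes multiplied every other level by 1.18 to 1.19.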
